A study of Homo sapiens with 6 samples.

Results

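The transcripts of 10 inflammatory cytokines and chemokines (IL6, CXCL8, CCL2, CXCL1, CXCL2, CXCL3, CCL5, LIF, IL11 and IL1B) were examined in LX-2 cells after silencing of OGT. The genes were taken by symbol from the 16907 genes of the count files, in which all 10 were found, and the rule used no measured value. The set itself was, however, chosen with earlier results of these data known. LX-2 is an established human line of hepatic stellate cell origin. Stellate cells store vitamin A in the healthy liver and become matrix-forming myofibroblasts upon injury, and OGT is the transferase that modifies serines and threonines of proteins with the sugar O-GlcNAc. Cells in 5% serum received siControl or siOGT at 20 nM, RNA was taken after 72 h for 3 libraries per group, and libraries with the same replicate number form a pair. Per the study's list of reagents, siControl was a negative control siRNA of the Ambion Silencer Select type whereas siOGT was an ON-TARGETplus pool from Horizon Discovery, so that OGT silencing and the type of siRNA cannot be told apart.

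Myofibroblastic stellate cells are not only a source of matrix. They also secrete chemokines that attract leukocytes, and cytokines of the IL-6 family that act on neighbouring cells and on themselves through the receptor subunit gp130. Many of these genes are transcribed at a low level at rest and are switched on by the transcription factor NF-kB together with AP-1 and C/EBP proteins. Their mRNAs are then removed quickly by proteins that bind AU-rich elements, and the NF-kB pathway induces its own inhibitors.

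Between 25996770 and 27966801 expected counts were available per library. Levels are given as CPM, counts scaled to a common library size, and 1 CPM corresponded to between 25.5 and 27.9 counts. In pairs 1, 2 and 3, 22.5%, 19.7% and 24.1% of the siControl level of OGT remained. Of 14853 genes tested with edgeR, with the replicate number as a block, 25.4% were called (adjusted p-value 0.05 or below), 12.7% higher and 12.7% lower in siOGT. Without that block 0.875% were called, so the calls given here rest on the pairing of the libraries. Among 12 stellate and myofibroblast markers 9 reached a mean of 1 CPM, but DES and LRAT, which mark the desmin-positive and retinoid-storing stellate cell, were at or near 0. PTPRC, LYZ, CD163 and ITGAM, which define leukocytes and macrophages, stayed below 1 CPM in every library.

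The promoters of the 10 genes were looked at first, to show what they share. A set of RefSeq promoter windows (GRCh38.p14), from 250 bases before to 50 bases after the start, was used. This set held 7 of the 10 genes and had no entry for CCL2, CCL5 and LIF. A match to the 10-letter kappaB consensus, the site of NF-kB, was found on either strand in IL6, CXCL1, CXCL2 and CXCL3, against 10.8% of all 27305 promoter windows. The AP-1 letters TGANTCA were found in CXCL8 and IL11, against 7.76% of windows. The C/EBP letters TTNNGNAA, found in 37.2% of windows, occurred in IL1B, IL6 and CXCL2. In CXCL1, CXCL2 and CXCL3 a pair of kappaB matches on opposite strands overlapped by all but 1 base. For each gene a stretch of 80 bases around the motif named beside it is printed in the direction of transcription, with the matched letters in capitals. The C/EBP matches of IL6 and CXCL2 and the third one of IL1B lie outside these stretches.
IL6 (chr7:22727092-22727171, plus strand, kappaB): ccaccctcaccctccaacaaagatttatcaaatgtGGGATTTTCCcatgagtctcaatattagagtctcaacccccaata
CXCL1 (chr4:73869279-73869358, plus strand, kappaB): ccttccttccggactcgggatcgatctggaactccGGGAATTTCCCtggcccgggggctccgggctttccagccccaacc
CXCL2 (chr4:74099229-74099308, minus strand, kappaB): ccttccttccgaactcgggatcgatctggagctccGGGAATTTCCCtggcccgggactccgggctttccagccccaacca
CXCL3 (chr4:74038724-74038803, minus strand, kappaB): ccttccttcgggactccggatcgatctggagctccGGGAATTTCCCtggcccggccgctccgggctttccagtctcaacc
CXCL8 (chr4:73740395-73740474, plus strand, AP-1): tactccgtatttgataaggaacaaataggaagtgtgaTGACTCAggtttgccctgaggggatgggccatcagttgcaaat
IL11 (chr19:55370517-55370596, minus strand, AP-1): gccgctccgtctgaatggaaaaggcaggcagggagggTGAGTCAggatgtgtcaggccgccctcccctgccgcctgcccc
IL1B (chr2:112836802-112836881, minus strand, C/EBP): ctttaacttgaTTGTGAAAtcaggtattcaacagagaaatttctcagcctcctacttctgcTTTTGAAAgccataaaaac
The kappaB match lay at nearly the same distance from the start in the 3 chemokine genes, beginning 79, 78 and 79 bases before it in CXCL1, CXCL2 and CXCL3. The stretches of CXCL1, CXCL2 and CXCL3 are nearly alike, so their matches are not independent of one another. A match describes these letters only and does not show that a factor bound there in LX-2 cells. Sites that depart from these letters are not found by such a search.

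All 10 transcripts were scarce. Together they held between 0.00585% and 0.00928% of the counts of a library, and single values ranged from 3 to 878 expected counts. A mean of at least 1 CPM was reached by 8 genes, and CXCL2 and CXCL3 stayed below it. Levels can be compared between genes only per length, so CPM were divided by the kilobases of exonic sequence of each gene in GENCODE 44. On this scale IL11 was highest in siControl, with a mean of 8.80 CPM per kb and a range from 7.70 to 9.66. IL1B followed with 5.18 (4.31 to 6.24), and its siControl range did not overlap that of IL11. CCL2 had 3.64 (2.76 to 4.63) and CCL5 2.79 (2.17 to 3.48), and these neighbours overlapped, as did CCL2 with IL1B. LIF had 1.66 and CXCL8 1.39 CPM per kb, again with overlapping ranges. CXCL1 (0.848) and IL6 (0.687) could not be ordered by their ranges either, and CXCL2 (0.207) and CXCL3 (0.0792) were the lowest. On this scale IL11 was therefore the only one of the 10 genes whose siControl range lay above those of all others. The length used joins the exons of all annotated transcripts, and for CCL2 it was 1935 bases, the whole gene. Lengths of the transcripts made in LX-2 cells were not determined, and the order may differ with them.

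**Figure D1:**
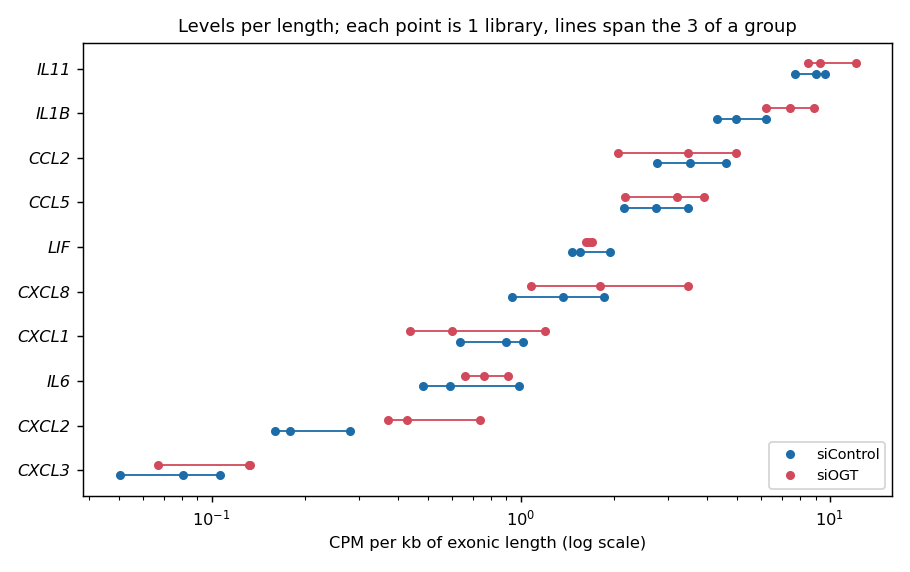
Level of each gene per length, as CPM per kb of exonic sequence on a log scale, with 1 point per library (blue siControl, red siOGT) and a line from the lowest to the highest library of a group. IL11 and IL1B are at the top and CXCL2 and CXCL3 at the bottom, and the groups overlap for every gene except CXCL2.

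When siOGT was compared with siControl, 1 of the 10 genes was called, IL1B, which rose. By edgeR, DESeq2 or limma-voom no gene was called lower, and none with a lower level reached an unadjusted p-value of 0.05. The share called, 1 of 10, stands beside 25.4% of all genes tested. Of the 8 genes at or above 1 CPM only IL1B was called, beside 25.6% of 5158 genes within their range of mean CPM. With so few genes these shares are not read as different. An unadjusted p-value of at most 0.05 was obtained for 3 genes (IL1B, CXCL8 and CXCL2), against 36.7% of all genes. The log2 fold change was above 0 for 8 of 10 genes, with a median of 0.19 against 0.0068 over all genes tested. Higher values in 3 of 3 pairs were seen for IL1B, CXCL2 and CCL5, while 27.4% of all genes had this pattern, and no member was lower in 3 of 3 pairs. The siControl and siOGT libraries did not overlap in CPM for 1 gene, CXCL2, a separation in the higher direction that 12.1% of all genes had.

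IL1B (chromosome 2, 112829751 to 112836816, minus strand, hg38) encodes interleukin 1 beta, a cytokine made as an inactive precursor and released after cleavage. Its siControl libraries 1, 2 and 3 had 347, 382 and 524 counts, and its siOGT libraries 722, 504 and 601. This corresponded to 13.0, 15.01 and 18.8 CPM in siControl and to 26.7, 18.7 and 22.4 CPM in siOGT. Every pair was higher under siOGT, although siOGT 2 was just under siControl 3, so that the groups overlapped slightly. The mean went from 15.6 ± 2.94 to 22.6 ± 4.01 CPM (n = 3 each, SD), a log2 change of 0.54 (SE 0.12, 95% confidence interval 0.28 to 0.79, edgeR adjusted p-value 0.00333), or 1.45-fold. The log2 ratios of the pairs were 1.04, 0.32 and 0.25, so the difference was largest in pair 1. Without pair 1 the log2 fold change was 0.29 and the call was lost (adjusted p-value 0.109), and it was also lost without the replicate block (0.152). IL1B is a cytokine typical of macrophages, and of the leukocyte and Kupffer cell markers CD68, a lysosomal glycoprotein that many cell types also make, was called higher with a log2 change of 0.46 (edgeR adjusted p-value 9.47e-04). Summed over the 9 of 10 markers of this list found in the files, the level was between 133 and 164 CPM in siControl. In siOGT it was between 178 and 209 CPM. CD68 alone made up 123 to 154 CPM of this sum in siControl and 168 to 201 CPM in siOGT. Only CD68, CD14 and CSF1R of these markers reached a mean of 1 CPM. PTPRC was between 0.333 and 0.855 CPM, CD163 and ITGAM were seen in 1 library each, and none but CD68 was called. The other tested markers CD14, CSF1R, ADGRE1, PTPRC and LYZ had negative log2 fold changes (-0.26, -0.53, -0.73, -0.089 and -0.025). The part of CD68-expressing cells in the IL1B result was not tested.

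**Figure D2:**
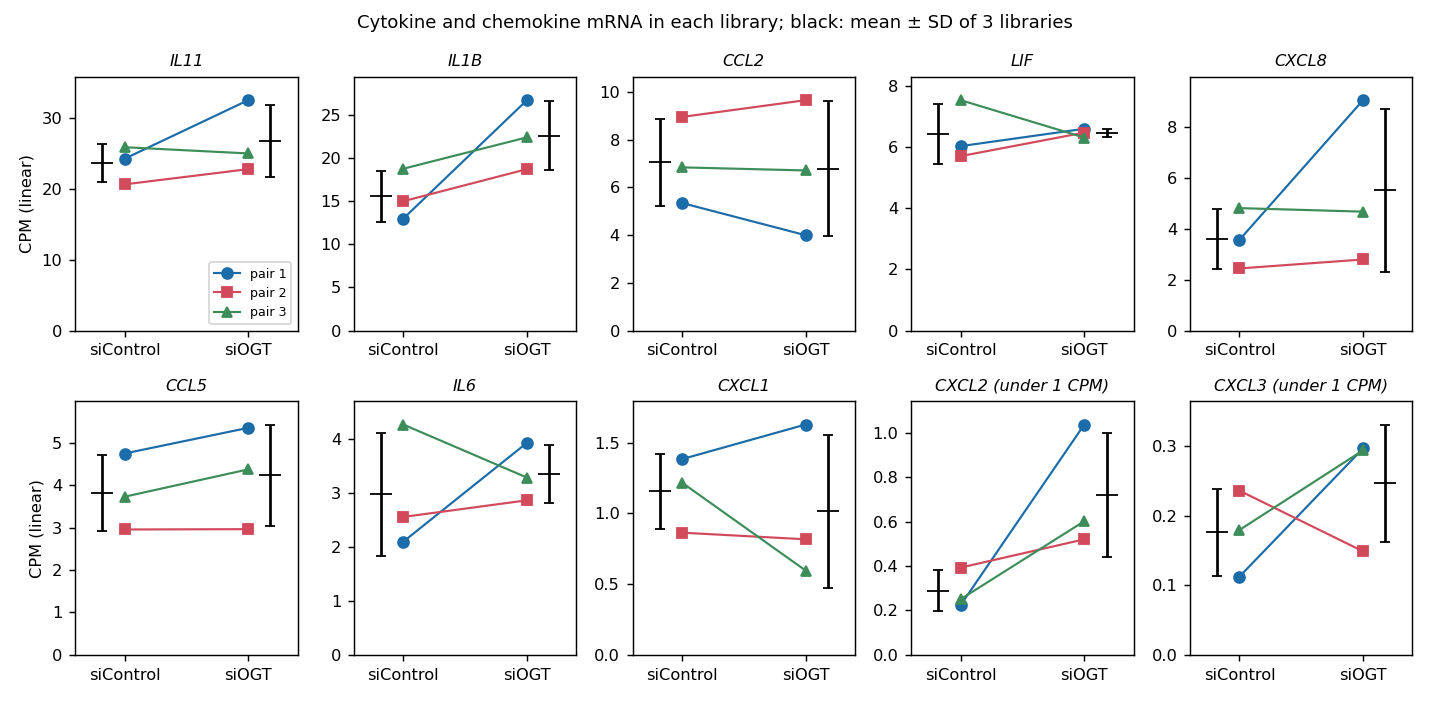
CPM of each gene in each library on linear axes that start at 0, with lines joining the siControl and siOGT library of a pair and black bars giving the mean ± SD of 3 libraries. IL1B is higher in siOGT in all 3 pairs, CXCL8 is above the siControl range in pair 1 only, and CCL2 keeps the same order of pairs in both groups.

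Chemokines that attract neutrophils were examined next. CXCL8 (chromosome 4, 73740519 to 73743716), the chemokine interleukin 8, had 95, 62 and 134 counts in siControl and 244, 75 and 125 in siOGT. The high value of siOGT 1 stood apart, and the other siOGT libraries lay within the siControl range. Its fitted log2 change was 0.54 (SE 0.217, 95% confidence interval 0.080 to 0.99) and it was not called (edgeR adjusted p-value 0.0794), the log2 ratios of the pairs being 1.33, 0.19 and -0.042. Without pair 1 the log2 fold change was 0.061 (adjusted p-value 0.902), whereas without pair 2 (0.00402) or pair 3 (0.0192) CXCL8 was called. It was also called when no filter on low counts was applied (0.0183).

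CXCL1, CXCL2 and CXCL3 encode closely related ligands of the same neutrophil receptor, CXCR2, and lie in the same cluster on chromosome 4 as CXCL8. CXCL1 had 37, 22 and 34 counts in siControl and 44, 22 and 16 in siOGT. Its groups overlapped, and the log2 fold change of -0.24 (95% confidence interval -0.95 to 0.47, edgeR adjusted p-value 0.655) turned to 0.099 without pair 3. CXCL2 had 6, 10 and 7 counts in siControl and 28, 14 and 16.1 in siOGT, and the siOGT libraries were all above the siControl libraries. Its log2 change was 1.27 (SE 0.528, 95% confidence interval 0.16 to 2.38), the highest of the 10 genes, but it was not called (edgeR adjusted p-value 0.0875). It was 0.80 without pair 1 and 1.72 without pair 2. CXCL3 had 3 to 6 counts in siControl and 4 to 8 in siOGT, with a log2 change of 0.49 and a 95% confidence interval from -1.07 to 2.04, too wide to tell a rise from a fall (edgeR adjusted p-value 0.684), and it was 0.090 without pair 1 and 1.01 without pair 2.

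The 3 genes are so alike that RSEM can divide reads between them. In siOGT 3 CXCL2 had 16.13 and CXCL3 7.87 expected counts, fractions that add up to 24. Their values in the other libraries, and those of CXCL1 in all libraries, were whole. A division of reads between these genes was therefore visible in siOGT 3 only, where the values of CXCL2 and CXCL3 are uncertain. Whole values elsewhere do not show that every read was assigned to the right gene. Over the 321 bases of coding sequence up to the stop codon CXCL2 and CXCL3 were 94.4% identical, with an unbroken run of 97 shared bases. CXCL1 was 93.5% identical to CXCL2 and 90.7% identical to CXCL3. The stretch of 120 coding bases (114 to 233) with the fewest differences is shown, since it is the part in which a read is hardest to assign. Capitals mark the 5 positions at which the 3 genes are not all the same.
CXCL1 (chr4:73869682-73869914, plus strand, an intron left out): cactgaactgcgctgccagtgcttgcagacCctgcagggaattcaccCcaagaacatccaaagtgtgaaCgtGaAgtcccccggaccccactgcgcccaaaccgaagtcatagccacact
CXCL2 (chr4:74098676-74098909, minus strand, an intron left out): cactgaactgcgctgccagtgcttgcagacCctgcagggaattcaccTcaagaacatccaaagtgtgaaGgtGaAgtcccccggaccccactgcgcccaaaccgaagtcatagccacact
CXCL3 (chr4:74038168-74038400, minus strand, an intron left out): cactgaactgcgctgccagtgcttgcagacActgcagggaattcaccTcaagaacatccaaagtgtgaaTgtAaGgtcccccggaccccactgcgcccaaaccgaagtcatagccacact
When the 3 genes were summed, which no division of reads between them can change, the siControl libraries had 46, 38 and 46 counts and the siOGT libraries 80, 40 and 40. Only siOGT 1 was above the siControl range. The log2 fold change of the sum was 0.24 (95% confidence interval -0.33 to 0.81, edgeR adjusted p-value 0.562), and the groups of the sum overlapped.

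Chemokines of monocytes and lymphocytes were not called. CCL2 (chromosome 17, 34255274 to 34257208), the monocyte chemoattractant MCP-1, had 5.35, 8.96 and 6.84 CPM in siControl and 3.998, 9.66 and 6.71 in siOGT. The pairs kept their order, with pair 2 highest and pair 1 lowest in both groups, and the span between pairs was wider than any difference within a pair. In the fit it changed by -0.089 (log2, SE 0.135, 95% confidence interval -0.37 to 0.19, edgeR adjusted p-value 0.682). CCL5 (RANTES, chromosome 17, 35871491 to 35880793), which attracts T cells and monocytes, had 4.74, 2.95 and 3.73 CPM in siControl and 5.35, 2.96 and 4.37 in siOGT. Its pairs were also ordered alike in both groups, now with pair 1 highest, and the log2 fold change was 0.14 (95% confidence interval -0.20 to 0.49, edgeR adjusted p-value 0.579). The expected counts of CCL5 were fractional in every library except siControl 3, for example 126.83 in siControl 1 and 144.49 in siOGT 1. Some of its reads were thus shared out by RSEM, which limits these values.

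The IL-6 family was represented by IL6, LIF and IL11, which all signal through gp130. IL6 (chromosome 7, 22725884 to 22732002) had 56, 65 and 119 counts in siControl and 106, 77 and 88 in siOGT. The siControl libraries differed among themselves by 2.04-fold in CPM, and the siOGT libraries fell within their range. The fit gave a log2 change of 0.21 (SE 0.223, 95% confidence interval -0.26 to 0.68, edgeR adjusted p-value 0.548), the pairs giving 0.88, 0.16 and -0.37, and without pair 1 it was -0.13. LIF (chromosome 22, 30240453 to 30246759), a cytokine named for its action on leukaemia cells, had 161, 145 and 210 counts in siControl and 178, 174 and 169 in siOGT. The siOGT libraries were nearly equal and lay inside the siControl range, and the log2 fold change was 0.014 (95% confidence interval -0.27 to 0.30, edgeR adjusted p-value 0.954).

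IL11 (chromosome 19, 55364382 to 55370463), a cytokine that acts on fibroblasts themselves, had 648, 525 and 722 counts in siControl and 878, 613 and 670 in siOGT. siOGT 1 was above all siControl libraries, while the other siOGT libraries were within their range. Its log2 change in the fit was 0.17 (SE 0.0904, 95% confidence interval -0.016 to 0.36, edgeR adjusted p-value 0.173). As the most deeply counted member IL11 had the smallest error of the 10, with an interval of 0.989 to 1.29 in fold. Without pair 3 IL11 was called (log2 fold change 0.28, adjusted p-value 0.0444). Genes lie on the opposite strand of IL6, LIF and CCL5 but none overlaps a member on the same strand, and the counting is stated to use strand.

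**Figure D3:**
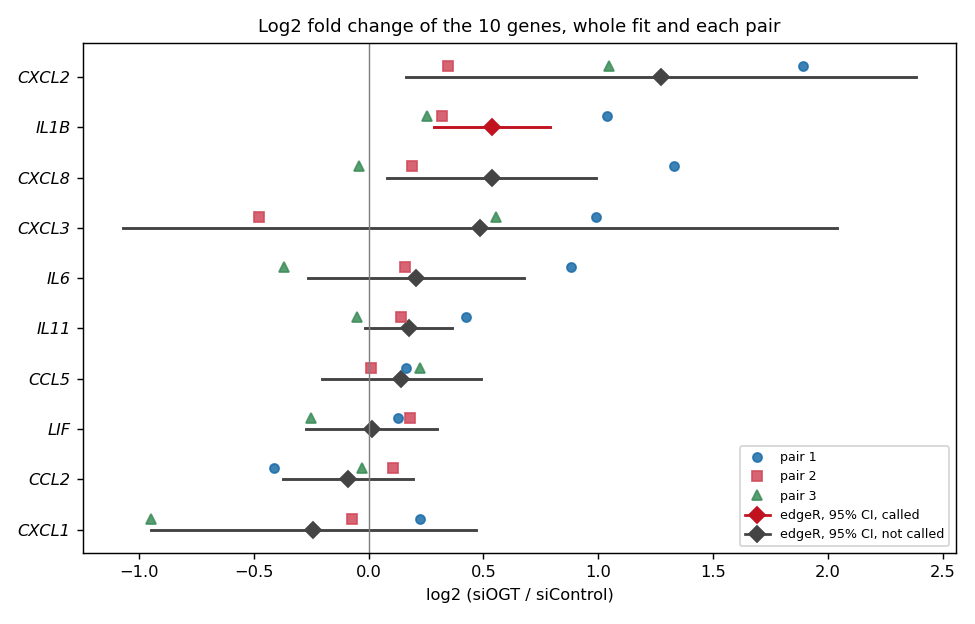
Log2 fold change of siOGT against siControl for each gene, with diamonds and lines for the edgeR estimate and its 95% confidence interval (red where called) and coloured points for the log2 ratio within each pair. IL1B is the only red interval, pair 1 lies to the right of the other pairs for CXCL2, IL1B, CXCL8, CXCL3, IL6, IL11 and CXCL1, and pair 3 lies left of 0 for 6 genes.

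The pairs differed in a way that ran through most of these genes. In pair 1, 9 of 10 genes were higher in siOGT, with a median log2 ratio of 0.65. In pair 2, 8 were higher (median 0.15), and in pair 3, 4 were higher (median -0.034). Of the 8 genes at or above 1 CPM, 7, 7 and 2 were higher in pairs 1, 2 and 3. Over the 12373 genes that averaged 1 CPM or more the share higher in siOGT was between 49.6% and 50.9% in every pair, and the median absolute log2 ratio was 0.19, 0.17 and 0.19. The share of OGT left in these pairs was 22.5%, 19.7% and 24.1%, and its part in the difference between pairs was not tested. Counting error alone would give a standard error of the mean log2 ratio of 0.132 for IL6, 0.117 for CXCL8 and 0.0536 for IL1B. The edgeR errors, 0.223, 0.217 and 0.12, were larger for each.

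Across the 6 libraries the pairs of members most alike were CXCL8 with IL11 (Pearson's r of log2 CPM 0.984), CXCL2 with IL1B (0.846), CXCL8 with CCL5 (0.822), IL6 with LIF (0.818) and CCL5 with IL11 (0.817), whereas CCL2 ran against all 9 other genes and most of all against CCL5 (-0.961). These values are descriptions from 6 libraries that share 3 pairs, and for CCL2 and CCL5 the order of the pairs was the same in both groups. They also include the difference between the groups. With the group means taken out, CXCL2 with IL1B fell to 0.553, and IL6 with IL1B was 0.931 (0.803 before). CXCL8 with IL11 (0.981), CXCL8 with CCL5 (0.824), IL6 with LIF (0.842) and CCL5 with IL11 (0.823) changed little. Among 9618 genes that averaged 10 CPM or more, those most like IL1B were NFKBIA (r 0.994), MNAT1 (0.985) and SLU7 (0.984). For IL11 they were RBM15B (0.992), ZNF507 (0.991) and SRPK2 (0.984), and for CCL2, with 9619 genes searched, they were SLC38A4 (0.997), LAYN (0.997) and TMEM131 (0.994). With so many genes searched over 6 libraries, values this high came up for each of these members, and shared control was not tested.

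The neighbourhood of the 10 genes was then described with lists of pathway genes, arranged by role. Among all genes that averaged 1 CPM or more, 29.9% were called, 14.9% higher and 15% lower, and the shares of the lists are read against these values. Every call in these lists was lost without the replicate block except those of CD40 and GSDMD. Of 32 other cytokines and chemokines 28 were in the files, 20 were tested and 9 reached 1 CPM, and 2 were called higher and 1 lower. CSF1, the growth factor of macrophages, rose from 90.4 ± 6.35 to 115 ± 2.11 CPM (n = 3 each, SD), without overlap of the groups (log2 change 0.35, edgeR adjusted p-value 8.94e-04). IL24, a cytokine of the IL-10 family, rose from 29, 8 and 14 counts to 64, 27 and 35 (log2 fold change 1.33, edgeR adjusted p-value 0.00655), with a call that was lost without pair 1 (0.0609). CXCL12, a chemokine of stromal cells and the most abundant of this list, fell in each pair, from 118, 407 and 237 CPM to 88.1, 288 and 191 CPM. Its log2 fold change was -0.41 (edgeR adjusted p-value 2.48e-04), and the spread between pairs was larger than the change. TNF, CSF3, CXCL5, CXCL10 and OSM had at most 3 counts in any library and were not tested.

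Receptors through which the 10 proteins act were measured for 16 of 18 genes, of which 11 were tested, 1 was called higher and 2 lower. IL6R, the specific receptor of IL-6, rose from 9.74, 6.80 and 7.38 CPM to 13.7, 12.3 and 11.4 CPM, a log2 change of 0.65 (SE 0.111, edgeR adjusted p-value 3.97e-04). All siOGT libraries were above all siControl libraries. IL6ST, which encodes gp130 and is the most abundant of these genes, had 346 ± 49.6 and 375 ± 61.6 CPM (n = 3 each, SD) and was not called (log2 fold change 0.11, edgeR adjusted p-value 0.284), but it was called without pair 3 (0.0228). LIFR fell by 0.21 on the log2 scale (edgeR adjusted p-value 0.0419) and SIGIRR, an inhibitor of interleukin 1 signalling, by 0.31 (0.0308). Both calls were lost without pair 1 (0.352 and 0.0681) and without pair 3 (0.10 and 0.0576), and that of SIGIRR also without pair 2 (0.197). CXCR2, the receptor of the neutrophil chemokines, had 1 count in 1 library, and IL1R2 and IL1RN, which restrain interleukin 1, had at most 1.

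Of 18 NF-kB subunits, kinases and adaptors 5 were called higher and 3 lower, with a median log2 fold change of 0.12. RELB, a subunit of the non-canonical pathway, rose from 14.2 ± 3.31 to 21.0 ± 6.34 CPM (n = 3 each, SD), by 0.55 on the log2 scale (edgeR adjusted p-value 3.31e-04). MAP3K14, the kinase NIK of the same pathway, rose by 0.30 (0.00419) and TAB2, an adaptor of TAK1, by 0.25 (0.0143). MYD88, the adaptor of interleukin 1 and Toll-like receptors, fell by 0.25 on the log2 scale (edgeR adjusted p-value 0.0110), and IRAK1, the kinase next to it and the most abundant gene of this list, fell by 0.21 (0.0337). The remaining calls were RELA, the main transactivating subunit (log2 change 0.19, 0.0341), NFKB2 (0.24, 0.0197) and the kinase RIPK1 (-0.23, 0.0219). Without pair 1 the calls of MAP3K14 (0.0825), TAB2 (0.198), MYD88 (0.0825) and IRAK1 (0.183) were lost. TAB2 (0.0518) and IRAK1 (0.0897) also lost theirs without pair 3, and MYD88 (0.0582) without pair 2. Calls were equally lost without pair 1 for RELA (0.293), NFKB2 (0.152) and RIPK1 (0.069), without pair 2 for RELA (0.0891) and RIPK1 (0.108), and without pair 3 for NFKB2 (0.0583). RELB was thus the only one of the 8 called genes to stay called without each pair in turn.

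Among 12 inhibitors and feedback genes of NF-kB, 6 were called higher and 1 lower, that is 58.3%, with a median log2 fold change of 0.16. Most of them are themselves induced by NF-kB. BIRC3, an inhibitor of apoptosis, rose from 6.13, 3.42 and 7.09 CPM to 14.0, 6.02 and 10.6 CPM, a log2 change of 0.87 (SE 0.135, edgeR adjusted p-value 1.85e-04). TNFAIP3, the ubiquitin-editing protein A20, rose from 31.3, 17.3 and 31.5 CPM to 66.2, 24.5 and 40.5 CPM, a log2 change of 0.66 (SE 0.105, edgeR adjusted p-value 2.23e-04). For both, pair 1 showed the largest difference and pair 2 the lowest levels, so that the groups overlapped. CYLD, a deubiquitinase, rose by 0.37 on the log2 scale without overlap of the groups (edgeR adjusted p-value 4.64e-04). NFKBIB, an inhibitor that holds NF-kB in the cytoplasm, rose by 0.27 (0.0247), and TNIP1, the most abundant of this list, fell by 0.24 (0.0118). Both of the latter calls were lost without pair 1 (0.372 and 0.0655). NFKBIA, named above for its likeness to IL1B, had a log2 change of 0.25 (edgeR adjusted p-value 0.0158), and NFKBIE, of the same family, one of 0.26 (0.0164). Both calls were lost without pair 1 (0.337 and 0.112), and that of NFKBIE also without pair 3 (0.0527).

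Target genes of NF-kB other than cytokines were called lower 5 times and higher once among the 15 tested, out of 20, with a median log2 fold change of -0.21. CD40, a receptor of the TNF family, fell from 18.03, 18.6 and 20.5 CPM to 10.3, 12.9 and 11.4 CPM, a log2 change of -0.73 (SE 0.0974, edgeR adjusted p-value 4.48e-05). GCH1, the first enzyme of tetrahydrobiopterin synthesis, fell from 17.0 ± 1.61 to 11.8 ± 0.810 CPM and TNFAIP2 from 103 ± 14.9 to 72.4 ± 10.4 CPM (n = 3 each, SD), with log2 changes of -0.53 and -0.51 (edgeR adjusted p-values 5.01e-04 and 2.42e-05). For all 3 genes every siOGT library was below every siControl library. TNFRSF9 had a log2 change of -0.67 (0.0452), and this call was lost without any 1 of the pairs (0.106, 0.202 and 0.0905). PLAU, the urokinase plasminogen activator, was the remaining gene called lower (-0.40, edgeR adjusted p-value 0.00162), and NAMPT, an enzyme of NAD synthesis, the 1 called higher (0.21, 0.0274), a call lost without pair 1 (0.292) and without pair 2 (0.108). PTX3, a soluble pattern recognition protein and the most abundant gene of the list, had 265 ± 57.7 and 255 ± 15.04 CPM (n = 3 each, SD) and was not called (log2 fold change -0.034).

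**Figure D4:**
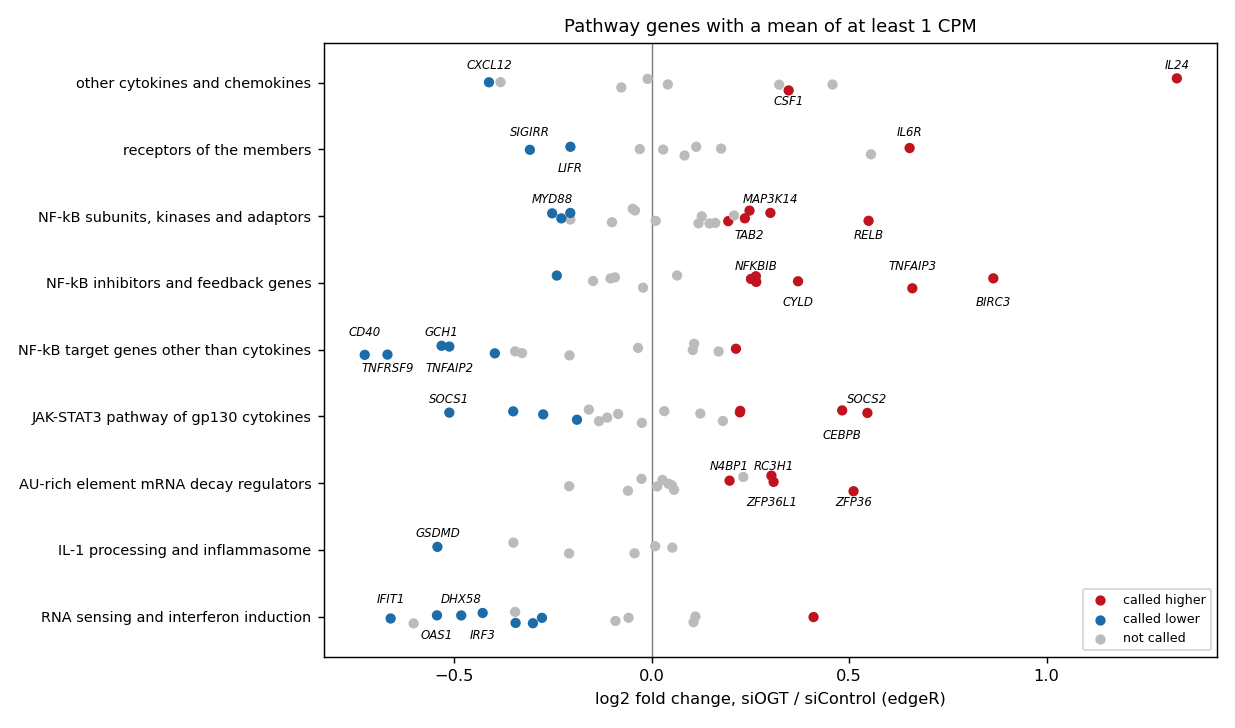
Log2 fold change of siOGT against siControl for pathway genes that averaged 1 CPM or more, arranged by list (red called higher, blue called lower, grey not called), with names for up to 4 called genes per list and 1 gene of the JAK-STAT3 list not drawn. Most called genes lie to the right of 0 among NF-kB inhibitors, with TNIP1 to the left. All 4 do in the list labelled AU-rich element mRNA decay regulators. Most lie to the left among NF-kB targets, with NAMPT to the right, and among RNA sensing genes, with TICAM1 to the right.

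Signalling downstream of gp130 was represented by 17 genes of the JAK-STAT3 pathway, of which 4 were called higher and 5 lower. CEBPB, a transcription factor of many cytokine promoters, rose from 136 ± 24.4 to 190 ± 26.1 CPM (n = 3 each, SD), a log2 change of 0.48 (edgeR adjusted p-value 2.20e-04). SOCS2 rose by 0.55 on the log2 scale (0.0141), a call lost without pair 1 (0.102). SOCS1, a feedback inhibitor of cytokine receptors, fell by 0.51 (edgeR adjusted p-value 0.00197). STAT3, the transcription factor that gp130 activates, fell by 0.19 (0.0349) without overlap of the groups. TYK2 and PIAS3 were also called lower, and BCL6 and PIM3 higher, with log2 changes of -0.27, -0.35, 0.22 and 0.22. The call of STAT3 was lost without pair 1 (0.19) and pair 2 (0.119), that of BCL6 without pair 1 (0.295), and that of PIM3 without pair 1 (0.167) and pair 3 (0.0694). The most abundant gene, the phosphatase PTPN11, had a log2 change of -0.085 and was not called (0.416).

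Among 13 genes listed as regulators of cytokine mRNAs 4 were called higher and 0 lower by edgeR. DESeq2 called none of them lower either, and 5 of the 13 passed an unadjusted p-value of 0.05. These were the 4 called genes and ZC3H12A, which was lower in every pair without overlap of the groups. Its log2 change was -0.21 (edgeR unadjusted p-value 0.0402, adjusted 0.117). ZFP36 (tristetraprolin), which binds AU-rich elements and promotes decay of cytokine mRNAs, rose from 30.3, 33.98 and 30.0 CPM to 43.8, 42.5 and 48.0 CPM, a log2 change of 0.51 (SE 0.0786, edgeR adjusted p-value 1.63e-04). Its relative ZFP36L1 rose from 521 ± 51.7 to 642 ± 4.67 CPM (n = 3 each, SD), by 0.30 on the log2 scale (edgeR adjusted p-value 0.00422). For both genes the groups did not overlap. RC3H1 (roquin) and N4BP1 rose by 0.31 and 0.20 (0.0157 and 0.0306). Without pair 1 the calls of ZFP36L1 (0.119), RC3H1 (0.0987) and N4BP1 (0.233) were lost, and without pair 3 those of RC3H1 (0.114) and N4BP1 (0.0569). KHSRP, the most abundant of the list, had a log2 change of 0.028 and was not called (0.815).

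Since IL1B needs cleavage to be released, genes of that step were listed as well. Of 8 tested 1 was called, GSDMD, which forms the pore for release. It fell from 34.3, 35.6 and 34.9 CPM to 22.5, 25.4 and 24.1 CPM, a log2 change of -0.54 (SE 0.0755, edgeR adjusted p-value 6.56e-05). The protease CASP1 and the sensor NLRP3 had log2 changes of -0.21 and -0.35 and were not called (edgeR adjusted p-values 0.156 and 0.0755). The adaptor PYCARD was below 1 CPM, with 0.463 and 0.372 CPM in siControl and siOGT, and NEK7, the most abundant gene, was not called (0.674).

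Cytokine genes are also part of the response to foreign RNA, and genes of RNA sensing and interferon induction were examined. Of these, 15 of 18 were tested, 1 was called higher and 7 lower. IFIT1, an interferon-stimulated gene, fell from 20.1, 31.5 and 23.0 CPM to 14.4, 19.4 and 13.2 CPM, a log2 change of -0.66 (SE 0.0884, edgeR adjusted p-value 4.42e-05). OAS1 and the sensor DHX58 fell by 0.54 and 0.48 on the log2 scale (edgeR adjusted p-values 0.00382 and 0.00515), and the transcription factor IRF3 by 0.43 (2.64e-04). The kinase EIF2AK2 (log2 change -0.30), IRF7 (-0.34) and ISG15 (-0.28) were also called lower, and TICAM1, an adaptor of Toll-like receptors, was the 1 called higher (0.41, edgeR adjusted p-value 3.89e-04). The call of OAS1 was lost without pair 2 (0.0688), and those of IRF7 and ISG15 without pair 2 (0.411 and 0.399) and without pair 3 (0.0838 and 0.0598). MAVS, the most abundant gene of the list, was not called (log2 fold change -0.058, 0.581). The interferon genes IFNB1 and IFNL1 had at most 1 count in any library of either group and were not tested.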

How the data were processed

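RNA of 6 LX-2 libraries was analysed. Per the study's methods and the submitters' processing notes, the authors enriched polyadenylated RNA, made stranded libraries, aligned paired-end reads to hg38 with Bowtie2 2.3.5.1 and counted them per gene with RSEM 1.3.1 with respect to strand. The authors deposited expected counts, which RSEM estimates by sharing out reads that fit more than 1 gene, without normalization. Between 85.8% and 87.7% of entries per library, zeros included, were exactly whole. The table of the authors' own comparison, made with DESeq2 1.36.0, holds mean levels, fold changes and p-values and was not used here.

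Expected counts were rounded, genes with a total below 10 were removed (2054 of 16907), and libraries were scaled by TMM. The quasi-likelihood test of edgeR 4.0.16 (R 4.3.3, two-sided) was fitted to 14853 genes with the replicate number as a block, a pairing stated in the study's methods, and Benjamini-Hochberg adjustment ran over all of these genes. Deviations from the group means correlated between same-numbered libraries by 0.688, 0.525 and 0.332 over 12373 genes, which are not independent replicates. Called means an adjusted p-value of 0.05 or below. The study calls the replicates independent experiments. Ratios within a pair have a prior count of 2, and standard errors were derived from the F statistic. The fits were tested on simulated data. DESeq2 1.42.0 and limma 3.58.1 (voom) were alternatives.

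From each pathway list were named up to 4 called genes of at least 1 CPM with the largest log2 fold change in size, and the most abundant gene. For the 3 most abundant members the 3 genes most alike were named. Some genes of the lists are counted but not reported here by name. Genes named outside this rule were chosen after their values were seen. Members and lists were chosen with earlier results of these data known. Coordinates of genes are from GENCODE 44 on hg38 and promoter sequences from RefSeq. In a bulk sample, fewer cells making a transcript and less transcript per cell cannot be told apart.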

Additional observations from a re-analysis of the deposited data

How the results depend on the processing

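Replicate pairing had the largest effect. Without the replicate block edgeR called 0 members, IL1B keeping a log2 fold change of 0.54 but not its call (2 members, IL1B and CXCL2, had an unadjusted p-value under 0.05), and 71 genes higher and 59 lower over the whole table, against 1885 and 1881. The common dispersion was 0.0193 without and 0.00449 with the block. Of the 49 genes called in the pathway lists, 47 lost their call without the block, the exceptions being CD40 and GSDMD, and none changed sign. CD68 kept 0.45 without its call (edgeR adjusted p-value 0.0867). DESeq2 with the block called 1117 genes higher and 1298 lower and IL1B among them, and 15 of the 49 list genes lost their call. These were LIFR, SIGIRR, NFKB2, RIPK1, NFKBIB, NFKBIE, NAMPT, TNFRSF9, SOCS2, PIM3, BCL6, RC3H1, N4BP1, IRF7 and ISG15. Calls were also lost by 6 list genes with library totals alone and by 2 (IRF7 and ISG15) with filterByExpr, which left CXCL3 untested. Without a low-count filter 2 members were called, CXCL8 (log2 fold change 0.54) joining IL1B. With filterByExpr, median-ratio size factors, library totals alone, DESeq2 or limma-voom IL1B was the 1 member called, and no member changed sign. The sum of CXCL1, CXCL2 and CXCL3 had a log2 fold change of 0.24, opposite in sign to CXCL1 alone (-0.24).

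Leaving out 1 pair at a time gave from 0 to 3 members called higher, from 858 to 1652 genes called higher and from 945 to 1787 lower, the lowest without pair 1. The log2 fold change ranged from -0.13 to 0.53 for IL6, from 0.061 to 0.86 for CXCL8, from -0.21 to 0.042 for CCL2, from -0.56 to 0.099 for CXCL1, from -0.069 to 0.15 for LIF, passing through -0.044, from 0.043 to 0.28 for IL11, from 0.29 to 0.68 for IL1B, from 0.80 to 1.72 for CXCL2, from 0.090 to 1.01 for CXCL3, from -0.12 to 0.11 for PTX3 and from -0.014 to 0.083 for KHSRP. Without pair 1, 23 of the list genes lost their call, without pair 2, 10, and without pair 3, 12. The cause was not tested. OGT kept its direction and its call under all 9 alternatives. Low counts limit CXCL1, CXCL2 and CXCL3, whose confidence intervals span more than 1 on the log2 scale.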
